A study of Mus musculus with 8 samples.

Results

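Immediate early genes are transcribed within minutes of a growth factor, cytokine or stress signal, without new protein synthesis. The m6A marks of 10 of them in mouse liver are described here: Fos, Fosb and Fosl2, Jun, Junb and Jund, Egr1, Ier2, Myc and Atf3. They were chosen by name, as every row of the deposited peak lists that carries one of these symbols. Of the 10 genes, 9 had a peak in at least 1 genotype, among 11558 such genes in all. m6ARIP-seq pulls down fragments of mRNA with an antibody to N6-methyladenosine (IP) and sequences them along with a part of the same RNA that saw no antibody (input). The libraries came from livers of C57BL/6 mice at 8 weeks of age on normal chow. Wtap flox/flox mice carry floxed Wtap alleles without Cre, and Wtap-HKO mice carry the same floxed alleles with Cre driven by the albumin promoter, so that deletion is aimed at hepatocytes while the other liver cells keep the gene. Each genotype had 2 IP and 2 input libraries, each from the pooled livers of several mice, 8 libraries in all.

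WTAP is the subunit that brings the METTL3 and METTL14 methyltransferase to nuclear speckles and to its mRNA targets. m6A lies mostly near stop codons and in long exons, and transcripts that carry it are often short-lived. FOS and JUN family proteins pair through leucine zippers to form the transcription factor AP-1, ATF3 is a stress-induced partner of the same zipper class, EGR1 is a zinc finger factor and MYC drives growth and ribosome production. Their mRNAs are among the least stable of the cell, and in liver they are induced by partial hepatectomy, feeding signals and injury.

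The deposited lists give each peak its position on GRCm38, its gene, its fold enrichment (the ratio of IP over input, with no unit) and the log10 of its false discovery rate (FDR). The libraries of a genotype are combined in its list. No value below therefore has an SD, no ratio of the genotypes computed below has a replicate check, and the depth of the libraries is unknown. The lists held 15635 peaks in 9020 genes for Wtap flox/flox (median fold enrichment 5.51) and 19185 peaks in 10634 genes for Wtap-HKO (median 5.93). Wtap itself had 3 sites with exactly 1 peak in each genotype. Their fold enrichments were 8.78, 20.7 and 8.06 in Wtap flox/flox against 20.6, 20.5 and 4.47 in Wtap-HKO, in the order from the 5' end of the gene. The first pairs a Wtap flox/flox peak from 12975250 to 12980836 with a Wtap-HKO peak from 12975250 to 12975459. The last pairs 12967484 to 12972709 with 12967543 to 12969464. The peaks of these 2 pairs differ widely in extent, so their values do not describe the same stretch of the gene. A fold enrichment is relative to the input and does not show whether the deletion lowered the amount of Wtap mRNA.

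Peaks at the start of the transcript are shown first, because there the lists of the genotypes differed for Jun and Junb. They differed for other genes too. Egr1 had a peak at its start, and Fosl2 a peak before its RefSeq start, in Wtap-HKO only, as given below. The start windows of RefSeq (GRCm38.p6) hold 7 of the 10 genes, and in these the first 50 transcribed bases were searched for GGACT, the DNA letters of GGACU, a common form of the sequence that the methyltransferase prefers. Jun and Junb held it on the transcribed strand, and Atf3, Fosl2, Fosb, Jund and Fos did not. Of 32851 windows of all genes, 5.76% held it on the transcribed strand and 4.87% on the opposite strand. Over the whole lists, the authors reported GGACU for the Wtap flox/flox peaks and did not find it for the Wtap-HKO peaks. The capitals mark GGACT, and both sequences read 5' to 3' on the minus strand.
Jun, chr4:95052185-95052214: caggctggataaGGACTcagagttgcactg
Junb, chr8:84978699-84978728: gccgagcactggGGACTttgagggtggcca
In Jun the motif occupied bases 21 to 25 of the transcript, inside the Wtap-HKO peak that began at base 1 and outside the Wtap flox/flox peak that began at base 31. In Junb it occupied bases 33 to 37, inside the Wtap-HKO peak that began at base 31. The Wtap flox/flox peak of Junb began at base 238. The lists give no precision for peak edges, and both motifs lie within a few bases of an edge. Inside and outside therefore refer to the listed edges only, and not to a difference in methylation at the motif. A match of letters is a description and not a mapped methylation site.

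The 10 genes had 14 peaks in 8 genes in Wtap flox/flox and 20 peaks in 9 genes in Wtap-HKO. Fos had peaks only in Wtap-HKO, and Fosb had none in either list. The Wtap-HKO list held more peaks than the Wtap flox/flox list for 4 genes (Fos, Fosl2, Myc and Atf3) and the same number for 5. Every one of the 34 peaks was a single exonic block, and together they covered 7316 exonic nt in Wtap flox/flox against 10098 nt in Wtap-HKO. The median fold enrichment of these peaks was 11.5 in Wtap flox/flox against 6.35 in Wtap-HKO. In Wtap flox/flox, 11 of 14 peaks lay above the median of their list and 4 lay in its upper 10%. In Wtap-HKO, 11 of 20 lay above the median and 0 in the upper 10%.

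**Figure D1:**
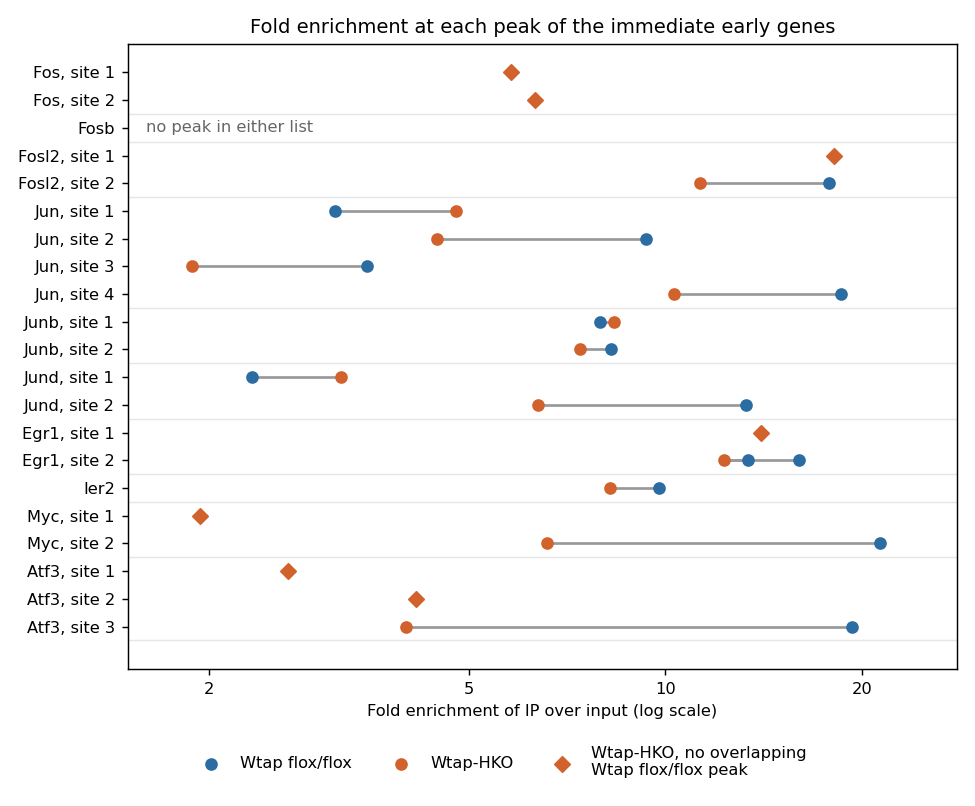
Fold enrichment of IP over input (log scale) at each peak of the 10 genes, with sites numbered from the 5' end. Circles joined by a line are peaks of the 2 genotypes that share exonic bases, and diamonds are Wtap-HKO peaks with no overlapping Wtap flox/flox peak. The widest gaps are at Atf3 (19.3 against 4.01) and Myc (21.3 against 6.58).

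All 14 Wtap flox/flox peaks shared exonic bases with a Wtap-HKO peak, against 80.1% of all Wtap flox/flox peaks. Conversely, 7 of the 20 Wtap-HKO peaks shared none, against 35.3% of all Wtap-HKO peaks. The share for these genes was thus near that of the whole list. Sites with exactly 1 peak in each genotype (shared 1 to 1) numbered 12, in 7 genes.

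Jun is the partner of FOS proteins that gives AP-1 much of its activity, and its gene (ENSMUSG00000052684, chr4:95049036-95052222, minus strand) has no intron. It had 4 peaks in each genotype, which paired 1 to 1. The peak at the start of the transcript covered bases 31 to 120 in Wtap flox/flox (95052103 to 95052192), with a fold enrichment of 3.12 and a log10 FDR of -7.7. In Wtap-HKO it covered bases 1 to 180 (95052043 to 95052222), with a fold enrichment of 4.78 and a log10 FDR of -66.9. This was the one Jun site with the higher fold enrichment in Wtap-HKO, 1.53-fold. The next site downstream was enriched 9.32-fold in Wtap flox/flox (95051269 to 95051775) against 4.46 in Wtap-HKO (95051239 to 95051835), 2.09-fold lower. The site after it was the weakest in Wtap-HKO of all peaks of the 10 genes, with 3.49 in Wtap flox/flox (95050851 to 95050971) against 1.88 in Wtap-HKO (95050732 to 95050941). The fourth site, the longest, covered 627 nt in Wtap flox/flox (95049898 to 95050524) against 895 nt in Wtap-HKO (95049749 to 95050643). Its fold enrichment, the highest of Jun in both genotypes, was 18.6 and 10.3. Thus the order of the Jun sites by fold enrichment ran 4, 2, 3, 1 in Wtap flox/flox livers but 4, 1, 2, 3 in Wtap-HKO, with sites numbered from the 5' end.

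Jund, the JUN protein that is present in resting cells (ENSMUSG00000071076, chr8:70697739-70700616, plus strand), had 2 sites with differences of opposite direction. Nearer the 5' end, the fold enrichment was 2.33 in Wtap flox/flox (70698949 to 70699128) against 3.19 in Wtap-HKO (70698949 to 70699276), 1.37-fold higher. Nearer the 3' end it was 13.3 in Wtap flox/flox (70699485 to 70700348, 864 nt) against 6.37 in Wtap-HKO (70699693 to 70700289, 597 nt), 2.09-fold lower. The latter was the one shared site of the 10 genes whose log10 FDR was listed as minus infinity in both genotypes.

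Junb, a family member that can oppose JUN (ENSMUSG00000052837, chr8:84976909-84978748, minus strand), had 2 sites at nearly equal enrichment in both genotypes. At the 5' site the fold enrichment was 7.95 in Wtap flox/flox (84977858 to 84978511) against 8.35 in Wtap-HKO (84977888 to 84978718), a log2 ratio of 0.07. At the 3' site it was 8.24 in Wtap flox/flox (84976999 to 84977710) against 7.39 in Wtap-HKO (84977117 to 84977710), a log2 ratio of -0.16. The 5' site reached closer to the transcript start in Wtap-HKO, to base 31 against base 238. In each of the 3 Jun family genes, the site nearest the 5' end therefore had the higher Wtap-HKO to Wtap flox/flox ratio than the site nearest the 3' end. Of 2286 genes with 2 or more shared sites, 62.8% had that order.

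Peaks on the opposite strand lay within the spans of Jun and Jund. In Jun they belonged to ENSMUSG00000087366, enriched 3.18-fold in Wtap flox/flox (95051564 to 95051743) against 6.69 in Wtap-HKO (95051534 to 95053047). They had 180 and 232 positions in common with Jun peaks. In Jund they belonged to ENSMUSG00000080058, with fold enrichments of 1.45 (70699482 to 70699689) and 6.66 (70699538 to 70700080) in Wtap flox/flox against 3.37 in Wtap-HKO (70699681 to 70700080). The methods do not name a strand-marking library kit, so reads of overlapping genes on opposite strands cannot be told apart, and the values of both the second Jun site and the 3' Jund site are uncertain in this respect.

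Among the Fos family, which needs a JUN partner to bind DNA, Fosl2 (ENSMUSG00000029135, chr5:32136472-32157840, plus strand) had a peak in both genotypes. Its fold enrichment was 17.8 in Wtap flox/flox (32152958 to 32153587) against 11.3 in Wtap-HKO (32152958 to 32153527), 1.58-fold lower. A second Fosl2 peak was listed only in Wtap-HKO, at 32135861 to 32136101. It ended 370 bases before the RefSeq start of the gene, although the deposited list assigns it to Fosl2. Its fold enrichment of 18.1 was the highest of the 10 genes in that genotype. Fos (ENSMUSG00000021250, chr12:85473890-85477274, plus strand) had 2 peaks, both in Wtap-HKO only, at 85475993 to 85476410 and 85476559 to 85476767. Their fold enrichments were 5.79 and 6.32, near the median of that list, with log10 FDRs of -14.1 and -9.37. Fos was 1 of 9 genes listed only in Wtap-HKO, against 22% of all genes with a peak. Fosb (chr7:19302696-19310118, minus strand), the remaining Fos gene, had no row in either list. Absence from a list can stand for too few reads as well as for little methylation, and the lists do not give transcript levels.

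Egr1 (ENSMUSG00000038418, chr18:34861207-34864956, plus strand) codes for a zinc finger factor that responds to serum and is a classical target of ERK signalling. In Wtap flox/flox it had 2 peaks, at 34862742 to 34863490 (fold enrichment 16) and 34863639 to 34863968 (13.4). In Wtap-HKO 1 peak of 1316 nt covered both, at 34862713 to 34864028, with a fold enrichment of 12.3. The log2 ratios against the former 2 were -0.38 and -0.12. These pairs were not 1 to 1 and stay out of the site counts. A further Egr1 peak was listed only in Wtap-HKO. It lay at the start of the gene, from 9 bases before the RefSeq start to 34861527, with a fold enrichment of 14 and a log10 FDR of -75.2. Ier2, which codes for a small nuclear protein (ENSMUSG00000053560, chr8:84661331-84662852, minus strand), had 1 peak over most of its length in each genotype. Its fold enrichment was 9.76 in Wtap flox/flox (84661391 to 84662524, 1134 nt) against 8.21 in Wtap-HKO (84661391 to 84662494, 1104 nt), 1.19-fold lower.

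Myc (ENSMUSG00000022346, chr15:61985341-61990361, plus strand) had the highest fold enrichment of all peaks of the 10 genes. It was 21.3 in Wtap flox/flox (61989688 to 61990195) against 6.58 in Wtap-HKO (61989538 to 61990195), 3.24-fold lower. The midpoint of the Wtap flox/flox peak lay at 91.6% of the gene span from the 5' end. A weak peak in the middle of the span, at 61987815 to 61987934, was listed only in Wtap-HKO, with a fold enrichment of 1.94. Atf3 (ENSMUSG00000026628, chr1:191170296-191183333, minus strand) had the largest difference of the shared sites. Its fold enrichment was 19.3 in Wtap flox/flox (191170685 to 191170894, 210 nt) against 4.01 in Wtap-HKO (191170595 to 191170924, 330 nt), 4.81-fold lower. The log2 ratio of -2.27 stood at percentile 0.857 among the 10499 sites shared 1 to 1, and that of Myc, -1.69, at percentile 2.74. Upstream of this site, 2 more Atf3 peaks were listed only in Wtap-HKO, at 191170984 to 191171223 (fold enrichment 4.15) and 191171283 to 191171612 (2.64). In Wtap flox/flox the Atf3 peak was therefore short and strongly enriched, and in Wtap-HKO 3 neighbouring peaks of lower enrichment occupied the end of the gene.

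**Figure D2:**
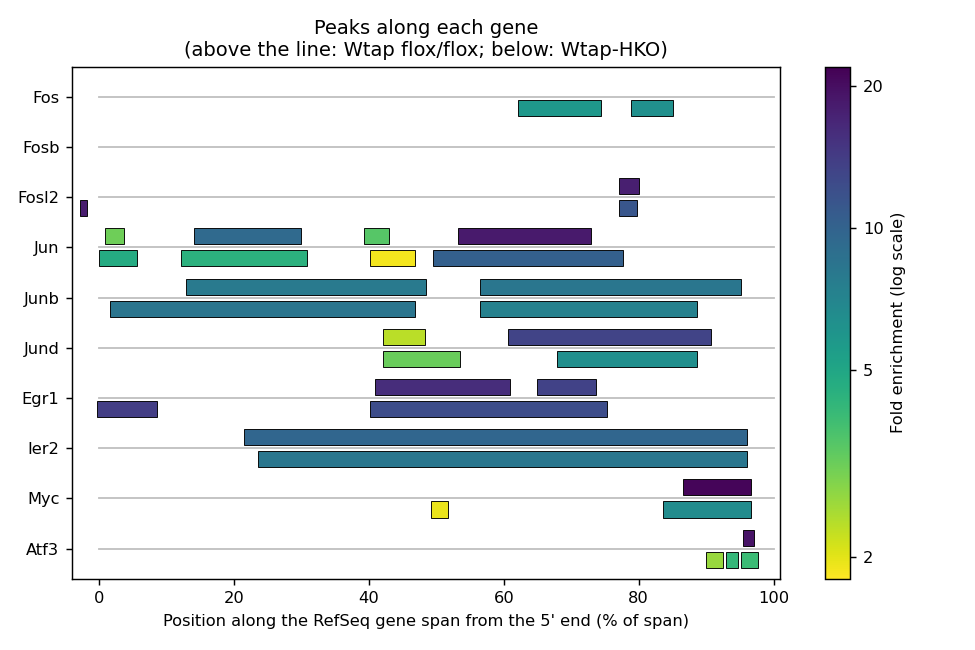
Peaks of each gene along its RefSeq span, from the 5' end (0%) to the 3' end (100%), introns included, coloured by fold enrichment on a log scale. Boxes above a line are Wtap flox/flox peaks and boxes below it are Wtap-HKO peaks. The peaks of Fosl2 and Egr1 at or before 0% and both peaks of Fos stand below the line only.

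Over the 12 sites shared 1 to 1, the fold enrichment was lower in Wtap-HKO at 9 and higher at 3, against 49.4% lower over all 10499 such sites. The median log2 ratio of Wtap-HKO over Wtap flox/flox was -0.75 (interquartile range -1.06 to -0.10), against 0.01 over all sites (-0.58 to 0.66). At least 2-fold lower were 4 sites, those of Atf3, Myc, Jund near its 3' end and the second of Jun, against 12.4% of all sites. At least 2-fold higher were 0, against 14.9% of all sites. The sites fall in 7 genes and 4 of them in Jun alone, so they are not independent of each other. Without Jun the median was -0.45, and with all overlapping pairs, those of Egr1 included, it was -0.52. Both values lie inside the interquartile range of all sites.

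The peaks of the 10 genes had a median fold enrichment of 11.5 in Wtap flox/flox, against 5.51 over all peaks of that list. The ratios over all sites are not matched for this. Sites of high enrichment in Wtap flox/flox were lower in Wtap-HKO over the whole list too. Of 1286 sites with a fold enrichment of at least 15 in Wtap flox/flox, the median log2 ratio was -0.44 and 30.6% were at least 2-fold lower. The 10 genes held 4 such sites (Atf3, Myc, Fosl2 and site 4 of Jun). All 4 were lower, with a median of -1.27, and 2 of them (Atf3 and Myc) were at least 2-fold lower. The limit was set on the denominator of the ratio, so the choice of sites itself favours lower ratios, and nothing is read from these 4 beyond their values.

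At most of the lower sites the FDR and the fold enrichment went in opposite directions. At the 8 lower sites with a finite FDR in at least 1 genotype, the FDR was smaller in Wtap-HKO at 7, against 30.2% of 5042 such sites over the whole list. At Atf3 the log10 FDR went from -8.66 to -45.4 while the enrichment was 4.81-fold lower. At Myc it went from -87 to -217 and at Fosl2 from -53.1 to -117. Ier2 was the exception among these 8, at -213 and -207. At the 3 higher sites, the first of Jun, Jund and Junb, the FDR was smaller in Wtap-HKO too. For a given fold enrichment, a peak that holds more reads gets a smaller FDR. The lists hold no reads, and the part of transcript level or depth in these values was not tested.

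**Figure D3:**
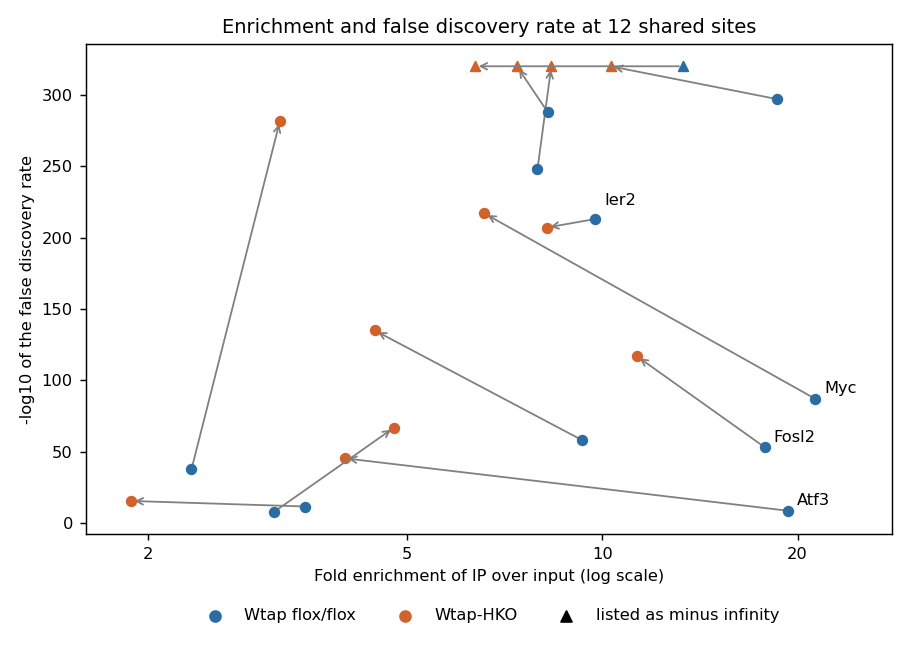
Fold enrichment (log scale) against -log10 of the FDR at the 12 sites shared 1 to 1, with an arrow from the Wtap flox/flox to the Wtap-HKO value of each site. Triangles at the upper edge stand for a log10 FDR listed as minus infinity. The arrows of Atf3, Myc and Fosl2 run to the left and upward, and that of Ier2 to the left and slightly downward.

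Along the gene span, introns included and with peaks beyond an end counted in the nearest stretch, the midpoints of the 14 Wtap flox/flox peaks fell 1, 2, 4, 5 and 2 into successive stretches of 20% from the 5' end. Over all Wtap flox/flox peaks placed on a span, the last stretch held 55.9% and the first 17.6%. The 20 Wtap-HKO peaks fell 3, 2, 5, 5 and 5, against 47.3% of all Wtap-HKO peaks in the last stretch and 26.2% in the first. The 3 in the first were those at the start of Jun and Egr1 and the Fosl2 peak, which lay before the start of the span. Over all sites shared 1 to 1 with a midpoint on the span, the median log2 ratio was 0.72 in the first stretch, 0.14 in the next, then -0.08, -0.15 and -0.20. For the 10 genes it was 0.62 (1 site), -0.50 (2 sites), -0.25 (3 sites), -0.75 (4 sites) and -1.98 (2 sites) in the same order. Because introns count in the span, a stretch need not hold the same part of the transcript in different genes. Jun has no intron and spans 3187 nt, while Fosl2 spans 21369 nt. The shares and ratios over all genes are not matched for gene structure, so their differences from the 10 genes are not read as differences in placement on the mRNA.

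A further deposited list holds 3870 peaks that the authors called as differing between the genotypes, in 3227 genes. Of the 9 genes with a peak, 2 had a row in it, against 27.8% of all genes with a peak. The Fosl2 row covered 32135831 to 32136131, around the peak before the RefSeq gene start, with a fold enrichment of 9.20 over both genotypes together. The Jund row covered 70699396 to 70700348, the 3' site, with a fold enrichment of 8.12. A row of ENSMUSG00000080058 on the opposite strand, from 70699567 to 70700080 (4.74), lay inside the latter. Atf3 and Myc, with the lowest ratios between the genotypes, had no row.

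The relatives and regulators of these genes were taken as 4 lists and are described by counts. Of 16 AP-1 and leucine zipper partners, 11 had a peak in Wtap flox/flox against 14 in Wtap-HKO. Their 17 shared sites had a median log2 ratio of 0.30, with 2 at least 2-fold lower and 3 at least 2-fold higher. The lowest ratios of single sites were in Ddit3, which codes for the stress factor CHOP (16.1 to 4.60, log2 ratio -1.81), and Mafk (5.76 to 2.84, -1.02). The other Mafk sites had ratios of -0.38 and 0.30. The highest was in Jdp2, a repressor of AP-1 (12 to 82.3, 2.78). The 3 Batf genes, which code for zipper factors of leukocytes, were listed only in Wtap-HKO, with fold enrichments of 90.3 for Batf, 40.7 for Batf2 and 24.9 for Batf3.

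Of 25 other immediate early genes, 21 had a peak in Wtap flox/flox against 24 in Wtap-HKO. Their 29 shared sites had a median log2 ratio of 0.22, with 5 at least 2-fold lower and 5 at least 2-fold higher. The lowest ratios of single sites were in Btg2, an antiproliferative factor (12 to 2.34, -2.36), and Nr4a1, an orphan nuclear receptor (39.5 to 9.58, -2.04). The log10 FDR went from -72.7 to -36.5 at this site of Btg2 and from -9.94 to -37.4 at this site of Nr4a1. Another site of each was higher in Wtap-HKO, with 3.23 to 4.91 (0.60) in Btg2 and 6.65 to 10 (0.59) in Nr4a1. The highest were in Gadd45a, a stress sensor (8.78 to 27.6, 1.65), and Zfp36l1, an mRNA decay factor (3.51 to 10.2, 1.54). Their log10 FDRs went from -6.13 to -40.6 and from -62 to minus infinity. Another Gadd45a site had a ratio of 0.20. Egr2 (fold enrichment 88.5, log10 FDR -49.6), Egr3 (28, -6.56) and Ier3 (8.65, -15.2) were listed only in Wtap-HKO.

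Of 26 upstream growth factor receptors, kinases and SRF factors, 20 had a peak in Wtap flox/flox against 22 in Wtap-HKO. Their 31 shared sites had a median log2 ratio of -0.21, with 3 at least 2-fold lower and 4 at least 2-fold higher. The lowest ratios of single sites were in Met, the hepatocyte growth factor receptor (13.7 to 4.97, -1.46), and Map2k4, which phosphorylates JNK (4.06 to 1.72, -1.24). Their other sites were lower in Wtap-HKO too, at -0.60 and -1.04. The highest was in the stress kinase Mapk14 (1.98 to 11.7, 2.56), whose other site was lower (6.62 to 4.40, -0.59). Araf (11.2) and Map2k1 (4.98) were listed only in Wtap-HKO.

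Of 11 genes of the MYC network, 8 had a peak in Wtap flox/flox against 11 in Wtap-HKO. Their 10 shared sites had a median log2 ratio of 0.55, with 1 at least 2-fold lower and 1 at least 2-fold higher. The lowest ratios of single sites were in Mycl (6.74 to 2.45, -1.46), whose other site was at -0.69, and in Max, the obligate partner of MYC (5.88 to 4.14, -0.51). The highest were in Mga (6.62 to 13.6, 1.04), whose other site was at 0.28, and in Mycn (9.13 to 18.1, 0.99). The log10 FDR went from -26.3 to -54.9 at the former Mga site and from -8.22 to -7.92 at Mycn. Mlx (4.93, log10 FDR -9.96), Mnt (6.85, -20.7) and Mxd3 (4.22, -5.1) were listed only in Wtap-HKO. None of the 4 lists had a gene listed only in Wtap flox/flox, nor had the 9 genes above, against 7.99% of all genes with a peak. Listed only in Wtap-HKO were 3 of 14 AP-1 and leucine zipper partners with a peak and 3 of 24 other immediate early genes. The upstream genes had 2 of 22 and the MYC network 3 of 11, against 22% of all genes with a peak.

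**Figure D4:**
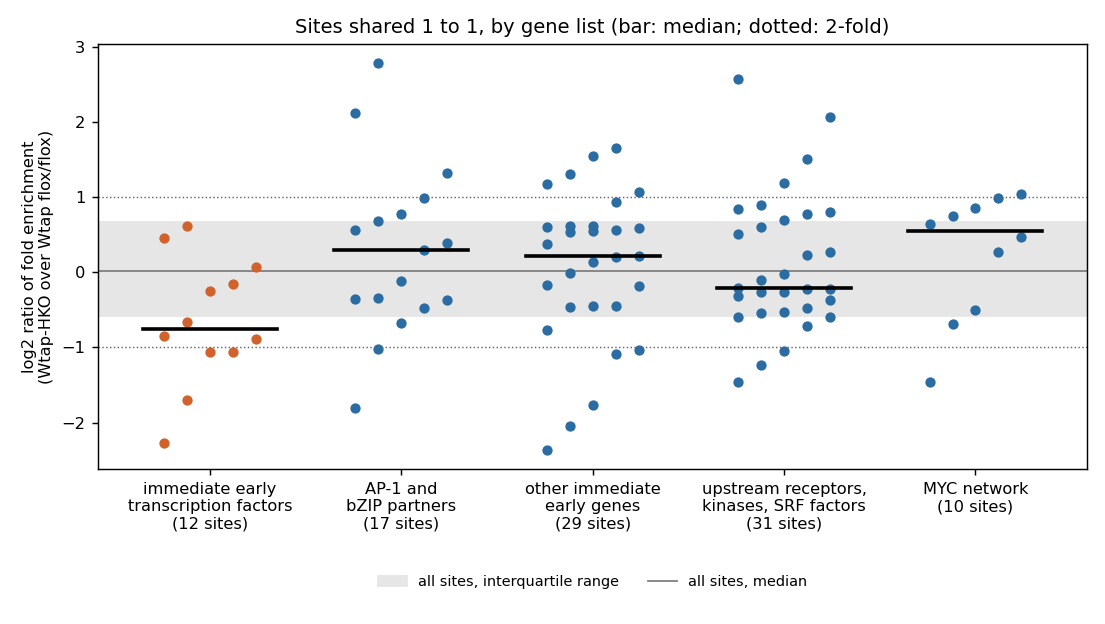
Log2 ratio of fold enrichment, Wtap-HKO over Wtap flox/flox, at each site shared 1 to 1, for the 10 genes (orange, 12 sites) and 4 lists of related genes (blue). Bars are medians, the grey band is the interquartile range of all 10499 sites and the dotted lines mark 2-fold. The orange bar lies at -0.75, below the band, and the bars of the 4 lists lie between -0.21 and 0.55.

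The liver is a mixture of cells, and in such bulk samples fewer cells of a type and less RNA per cell cannot be told apart. Of 6 hepatocyte marker genes, 4 had a peak in Wtap flox/flox against 5 in Wtap-HKO, and Cps1 had none. Of 19 markers of Kupffer cells, endothelial cells, stellate cells and leukocytes, 7 had a peak in Wtap flox/flox against 15 in Wtap-HKO, 8 of them in Wtap-HKO only (22% of all genes with a peak were). Among these, Kupffer cell markers went from 2 to 6 of 7, stellate cell markers from 2 to 4 of 4 and leukocyte markers from 0 to 2 of 4, while endothelial markers stayed at 3 of 4. Adgre1, Stab2 and Cd3e had no peak in either list. The part of these cells in the peaks listed only in Wtap-HKO, those of Fos included, was not tested.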

How the data were processed

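Livers of 2 genotypes were examined by m6ARIP-seq, with 2 IP and 2 input libraries each. Per the labels and methods, the authors trimmed 150 bp reads with fastp 0.19.11, aligned them to GRCm38 with BWA mem 0.7.12 and called peaks with exomePeak. The authors deposited the fold enrichment as a linear ratio and the FDR as a log10 score, with the replicates combined by a rule not given in the sources used here. The deposited list of differing peaks also holds the authors' log2 fold change, FDR and p-value between the genotypes. These columns were not used.

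Rows were selected by symbol, and starts are printed 1-based. Overlap by 1 or more exonic bases on 1 strand made peaks of the genotypes shared. The log2 ratio divides the 2 fold enrichments of a 1 to 1 site. Spans and sequences are from RefSeq. Every one of the 10 genes is named, with Wtap, the 2 highest and 2 lowest genes of each list and genes listed in 1 genotype only. Some genes that this rule names are not reported here. The genes and lists were chosen with earlier results of these data known, and the limit of 15 and the ratios by stretch of the span after seeing the data. Python 3.11.15, pandas 2.3.3, numpy 2.4.6 and matplotlib 3.10.9 were used, and the overlap counts were tested on simulated data. Motifs within peaks and the placement of stop codons and UTRs were not analysed here.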

Additional observations from a re-analysis of the deposited data

How the results depend on the processing

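With 1 combined list per genotype, no value has a replicate error, and depth sets an unknown floor below which a peak could not be listed. No paired analysis was possible because the lists hold no value per replicate. Of the values on the 10 genes together, 31 recomputed under other settings stayed close and 5 moved. With a fold enrichment of at least 2, 1 Wtap flox/flox peak had no overlapping Wtap-HKO peak (0 without that limit). At 1.5-fold in place of 2-fold, 7 sites were lower in Wtap-HKO and 1 was higher (4 and 0). The quartiles of the log2 ratio over all sites, -0.58 and 0.66, lie at or past 1.5-fold themselves. The share of all sites past 1.5-fold is not given here, so nothing is read from these 2 counts. With all overlapping pairs in place of 1 to 1 sites, the median log2 ratio was -0.52 (-0.75), a value counted here as close. Peaks of Wtap-HKO with an edge within 200 nt of the 3' end numbered 2, against 5 with the midpoint in the last 20% of the span. Leaving out each gene in turn, a choice made after seeing the data, the median log2 ratio ran from -0.87 (without Junb) to -0.45 (without Jun). Of single sites, 1 changed direction. The 5' site of Junb, with a log2 ratio of 0.07, had a change in percentile rank of -2.38.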
